A study of Mus musculus with 11 samples.

Results

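The transcripts of the cohesin ring, of the proteins that load, release and hold it, and of the boundary protein CTCF were followed in mouse embryonic stem cells from which the histone chaperone FACT was depleted. The 10 genes, Smc1a, Smc3, Rad21, Stag1, Stag2, Nipbl, Wapl, Pds5a, Pds5b and Ctcf, were taken by symbol from a table of 55291 gene symbols, and all 10 were present and passed the filter on low counts. The cells were of the E14 line, cultured off feeders in serum with LIF, the GSK3 inhibitor CHIR99021 and a MEK inhibitor. In 2 tagged lines, each targeted on its own and named 10E and 11D in the table, SPT16 (the large FACT subunit) carried V5 and an auxin-inducible degron at its C terminus. A degron of this kind lets the auxin IAA mark the protein for degradation by way of the plant receptor TIR1. Tagged cells received 500 nM IAA (10E in 1 library, 11D in 2) or an equal volume of ethanol (EtOH; 2 libraries in each line), and 3 libraries came from an untagged line given IAA, all for 24 hours. The columns taken as the untagged line are headed TIR1, and no EtOH library of that line was analysed, so line and IAA cannot be told apart where tagged EtOH cells are compared with it. Each tagged line is a single targeted line. Separate cultures are not stated for the libraries of 1 group, and the spread that p-values rest on may thus be technical.

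Cohesin is a ring that holds sister chromatids together and extrudes chromatin loops. SMC1A and SMC3 form its arms, RAD21 closes the ring, and STAG1 or STAG2 binds RAD21. NIPBL, with its partner MAU2, loads cohesin and drives extrusion, WAPL releases it, and PDS5A and PDS5B bind the ring and take part in both its release and its stable hold on DNA. CTCF binds DNA and halts extruding cohesin, which places loop anchors and domain boundaries. In embryonic stem cells, cohesin, NIPBL and CTCF are known to occupy enhancers and promoters of active genes.

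The stretches upstream of the transcription starts were read from RefSeq (GRCm38.p6), whose table matched 7 of the 10 genes: Smc1a, Smc3, Stag1, Wapl, Pds5a, Pds5b and Ctcf. Shown are the 250 bases before the start of Stag1, the gene that fell most, of Smc3, one of the 3 that fell least, and of Ctcf, whose windows hold no annotated exon. They lie at chr9:100643198-100643447, chr19:53600146-53600395 and chr8:105636288-105636537, each on the + strand, and capitals mark letters that match a motif searched on both strands.
Stag1: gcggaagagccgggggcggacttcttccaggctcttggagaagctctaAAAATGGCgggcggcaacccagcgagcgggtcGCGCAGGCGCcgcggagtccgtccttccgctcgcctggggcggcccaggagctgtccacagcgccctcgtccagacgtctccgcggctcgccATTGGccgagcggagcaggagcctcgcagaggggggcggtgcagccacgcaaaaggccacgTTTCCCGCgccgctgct
Smc3: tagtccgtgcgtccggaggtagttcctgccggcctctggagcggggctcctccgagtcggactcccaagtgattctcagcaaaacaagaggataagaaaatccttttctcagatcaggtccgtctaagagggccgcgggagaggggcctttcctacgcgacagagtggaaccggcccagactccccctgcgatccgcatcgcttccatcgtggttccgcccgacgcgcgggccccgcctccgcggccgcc
Ctcf: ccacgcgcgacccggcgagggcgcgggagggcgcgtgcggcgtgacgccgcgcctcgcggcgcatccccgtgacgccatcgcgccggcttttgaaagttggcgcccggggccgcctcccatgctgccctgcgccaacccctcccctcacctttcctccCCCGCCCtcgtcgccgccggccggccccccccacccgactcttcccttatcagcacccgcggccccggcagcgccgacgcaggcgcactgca
The motifs were TTTCCCGC and TTTGGCGC (E2F), GCCATNTT (YY1), GCGC, any base and TGCGC in a row (NRF1), GGGCGGG (SP/KLF) and ATTGG (NFY), and no 2 of these motifs overlapped within the windows printed. TTTCCCGC stood in the Stag1 window and in 0.895% of 32851 windows of the same length, and TTTGGCGC in the Pds5a window and in 0.417%. GCCATNTT occurred in Stag1 and Pds5b (3.91% of all windows), the NRF1 motif in Stag1, Wapl and Pds5b (3.74%), GGGCGGG in Smc1a, Pds5a and Ctcf (23.4%), and ATTGG in Smc1a, Stag1, Wapl and Pds5b (33.8%). The Smc3 window held none of these letters. GC content ran from 56.8% to 80.4% in the 7 windows against a median of 52.4% over all windows. The RefSeq start of Stag1 lies 45.6 kb inside the gene as GENCODE vM21 draws it.

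Library depth ran from 3100127 to 13510163 counts, and the 10 genes held between 246 and 5134 counts per library. Markers of embryonic stem cells were present in every library, with summed levels of 7679 to 9708 CPM (read counts scaled to a common library size) under EtOH, 3301 to 3676 in tagged cells under IAA and 8179 to 8782 in the untagged line. With IAA 9 of 10 fell, where 28.1% of all genes tested fell and 29.3% rose. Genes listed as markers of other cell types summed to 187 to 233, 162 to 188 and 202 to 217 CPM in the same groups. Most of each sum was Pecam1, with means of 147, 119 and 154 CPM, so the sums mainly follow that gene. Whether Pecam1 marks another cell type in these cells was not tested, and neither the sums nor its fall are read as such. Of 14 such markers tested, 3 rose (Neurod1, T and Pax6) and 3 fell (Eomes, Tubb3 and Pecam1). Pax6 was low, at a mean of 0.18 CPM under EtOH and 1.14 CPM in tagged cells under IAA. Scaled by library totals alone, T overlapped, at 0.84 to 14.8 CPM under EtOH and 3.55 to 30.1 CPM in tagged IAA libraries. With 10 counts required in every library, 4 of the markers were tested, of which 0 rose and 2 fell. Ptprc, Acta2 and Sox17 were at 0 in 8, 5 and 3 of the 10 libraries. The deposited counts record RNA and do not measure loss of the SPT16 protein. Supt16 transcripts themselves stood at 364 to 416 CPM under EtOH, 253 to 286 CPM in tagged cells under IAA and 538 to 577 CPM in the untagged line. A single entry named by its clone identifier, CT010467.1, took 2.64% of the counts of 10E EtOH replicate 2 and 4.27% of 11D EtOH replicate 1, against 0.129% to 1.58% elsewhere.

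All 10 genes were lower after IAA in the tagged lines. CPM were taken after TMM scaling, which sets libraries on a common scale from the bulk of their genes. With edgeR's quasi-likelihood test and a false discovery rate under 0.05 over 17904 genes, 10 of 10 were called lower, where 28.1% of all genes tested were. Among 9163 protein-coding genes of at least 10 CPM, 41.9% were called lower, with a median log2 fold change of -0.17. Stag1, Rad21 and Pds5a were at least 2-fold lower (3 of 10, against 9.75% of all genes). The median log2 fold change of the 10 was -0.86, and that of all genes was 0.03. In bulk RNA, a lower level per cell and a smaller share of cells that express a gene cannot be told apart. The 10 transcripts summed to 2172 to 2751 CPM under EtOH, 1220 to 1459 CPM in tagged cells under IAA and 2709 to 3092 CPM in the untagged line. For each of the 10, every tagged IAA library lay below every EtOH library, as did 25.4% of 17439 genes, and below every untagged library, as did 29.9%.

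**Figure D1:**
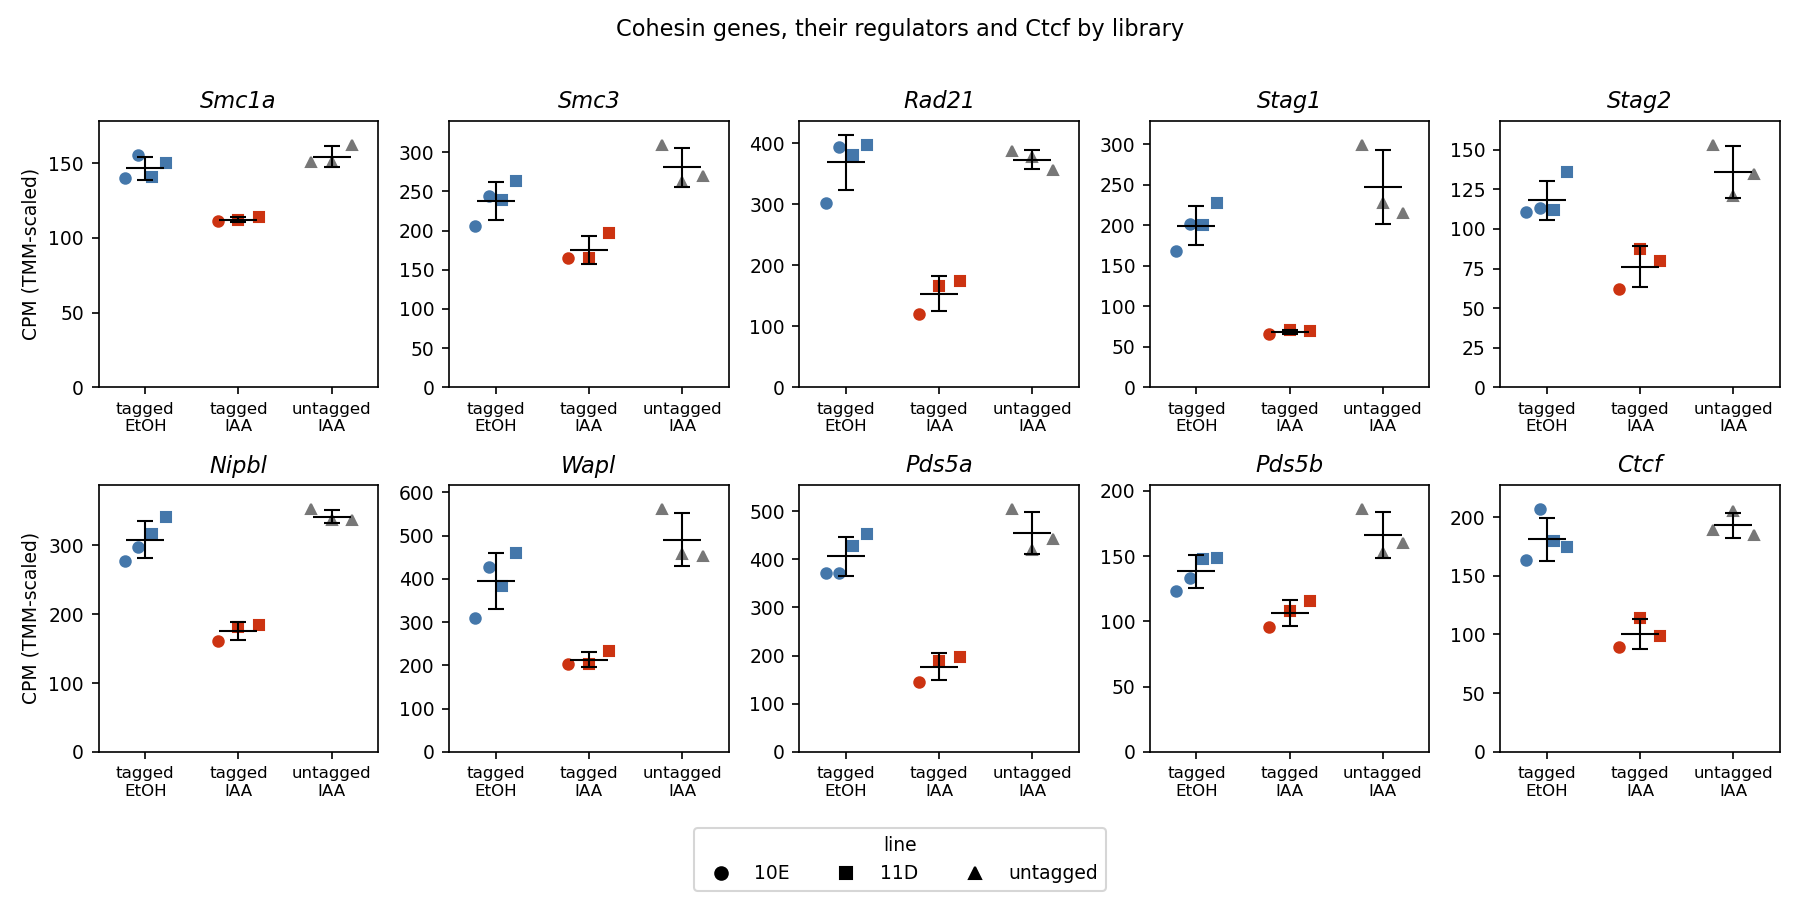
Level of each gene in every library, in TMM-scaled CPM on axes that start at 0; points are libraries (shape: line), the wide bar is the group mean and the whiskers are 1 SD (n = 4 tagged EtOH, 3 tagged IAA, 3 untagged IAA). In every panel the 3 tagged IAA libraries sit below the other 7, with the largest ratio of means for Stag1 (66.0 to 70.1 CPM against 168 to 299).

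The 2 SMC arms, Smc1a and Smc3, were among the 3 smallest falls. Smc1a read 140.0 and 156 CPM in 10E and 141 and 149.8 CPM in 11D under EtOH, and 111 CPM in 10E and 112 and 114 CPM in 11D under IAA. Its untagged libraries read 150.4, 150.5 and 162 CPM. The 3 IAA values were nearly equal and well apart from the lowest of the others. Its log2 fold change was -0.39 ± 0.09 (SE), a 1.31-fold fall (edgeR adjusted p = 0.00135). Smc3 read 206 and 244 CPM in 10E and 239 and 263 CPM in 11D under EtOH, then 165 CPM in 10E and 165 and 196 CPM in 11D under IAA, and 309, 262 and 270.0 CPM in the untagged line. The highest IAA library and the lowest EtOH library of Smc3 were close, at 196 and 206 CPM. Its log2 fold change was -0.47 ± 0.10, a 1.38-fold fall (edgeR adjusted p = 0.000627).

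Rad21, which closes the ring, had a far larger fold change than the arms it joins. It read 301 and 394 CPM in 10E and 381 and 397 CPM in 11D under EtOH, and 121 CPM in 10E and 166 and 174 CPM in 11D under IAA. The untagged libraries read 387, 377 and 356 CPM. The 10E IAA library was the lowest of all, and the highest IAA library stood well short of the lowest EtOH library. The mean went from 368 ± 45.3 CPM (SD, n = 4) to 154 ± 28.6 CPM (n = 3), a log2 fold change of -1.33 ± 0.11 (edgeR adjusted p = 6.88e-08). Of all genes tested, 5.86% had a lower or equal value.

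Both STAG subunits, which bind RAD21 and each mark a separate form of the complex, fell, Stag1 with the larger fold change. Stag1 read 168 and 202 CPM in 10E and 200.1 and 228 CPM in 11D under EtOH, and 66.0 CPM in 10E and 70.1 and 68.9 CPM in 11D under IAA. Its untagged libraries read 299, 228 and 215 CPM. The 3 IAA libraries nearly coincided across lines, and the log2 fold change of -1.58 ± 0.10, a 2.99-fold fall, was the largest of the 10 (edgeR adjusted p = 5.92e-09). Stag2 read 111 and 113 CPM in 10E and 112 and 136 CPM in 11D under EtOH, then 61.8 CPM in 10E and 87.2 and 79.5 CPM in 11D under IAA, and 153, 121 and 134 CPM in the untagged line. Here 10E was lower than 11D under IAA, and the log2 fold change was -0.70 ± 0.11, a 1.62-fold fall (edgeR adjusted p = 4.18e-05).

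The loader gene Nipbl fell 1.80-fold and the release factor gene Wapl 1.89-fold. Nipbl read 278 and 298 CPM in 10E and 316 and 341 CPM in 11D under EtOH, and 161 CPM in 10E and 182 and 184 CPM in 11D under IAA. The untagged line gave 353, 336 and 337 CPM. All 3 IAA libraries were thus far under the lowest of the rest, with a log2 fold change of -0.85 ± 0.09 (edgeR adjusted p = 5.81e-07). Wapl was among the most variable of the 10 under EtOH, at 309 and 427 CPM in 10E and 383 and 460.1 CPM in 11D. Under IAA it read 204 CPM in 10E and 202 and 233 CPM in 11D, and in the untagged line 561, 458 and 452 CPM. The IAA libraries did not reach the lowest EtOH library, and the log2 fold change was -0.92 ± 0.11 (edgeR adjusted p = 5.16e-06).

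In the PDS5 pair too, both genes fell and the A paralog had the larger fold change. Pds5a read 373 and 371 CPM in 10E and 428 and 453 CPM in 11D under EtOH, and 145 CPM in 10E and 189 and 196 CPM in 11D under IAA. Its untagged libraries read 504, 419 and 442 CPM. The log2 fold change of Pds5a was -1.26 ± 0.09, a 2.40-fold fall (edgeR adjusted p = 1.36e-08), with 10E again the lowest library. Pds5b read 123 and 133 CPM in 10E and 148 and 149 CPM in 11D under EtOH, then 95.6 CPM in 10E and 108 and 115 CPM in 11D under IAA, and 186, 152 and 160.0 CPM in the untagged line. Its highest IAA library and lowest EtOH library, 115 and 123 CPM, were close, and the log2 fold change was -0.42 ± 0.09, a 1.34-fold fall (edgeR adjusted p = 0.000711).

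Ctcf read 163 and 207 CPM in 10E and 180 and 174 CPM in 11D under EtOH, and 89.0 CPM in 10E and 114 and 98.4 CPM in 11D under IAA. In the untagged line it read 189, 205 and 185 CPM. The IAA libraries were the 3 lowest, and the log2 fold change of -0.87 ± 0.11, a 1.83-fold fall, placed Ctcf beside Nipbl and Wapl (edgeR adjusted p = 5.93e-06). Exons of Ctcf, Pds5a and Stag2 overlap those of genes on the opposite strand (Agrp and Gm5914; Gm42727 and Gm42729; Gm37564). These partners held at most 13 counts in any library, where the 3 genes held at least 282.

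Whether the 3 smallest falls were called depended on how libraries were scaled. With library totals in place of TMM factors, the median of all genes moved up by 0.33 on the log2 scale, and calls over all genes went from 51.0% to 73.0% higher. Smc1a then stood at -0.06 (edgeR adjusted p = 0.585), Smc3 at -0.13 (adjusted p = 0.224) and Pds5b at -0.09 (adjusted p = 0.413). The other 7 stayed lower, from -0.37 for Stag2 (edgeR adjusted p = 0.0070) to -0.93 for Pds5a, -0.99 for Rad21 and -1.25 for Stag1. No sign turned. Measured from the median of all genes in the same fit, Smc1a stood at -0.42 and Stag1 at -1.61 on either scale. A change of scaling moves all genes by nearly the same amount, so this equality follows from the calculation and is no further evidence. On library totals, every IAA library lay below every EtOH library for 7 of the 10, as for 14.3% of all genes.

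**Figure D2:**
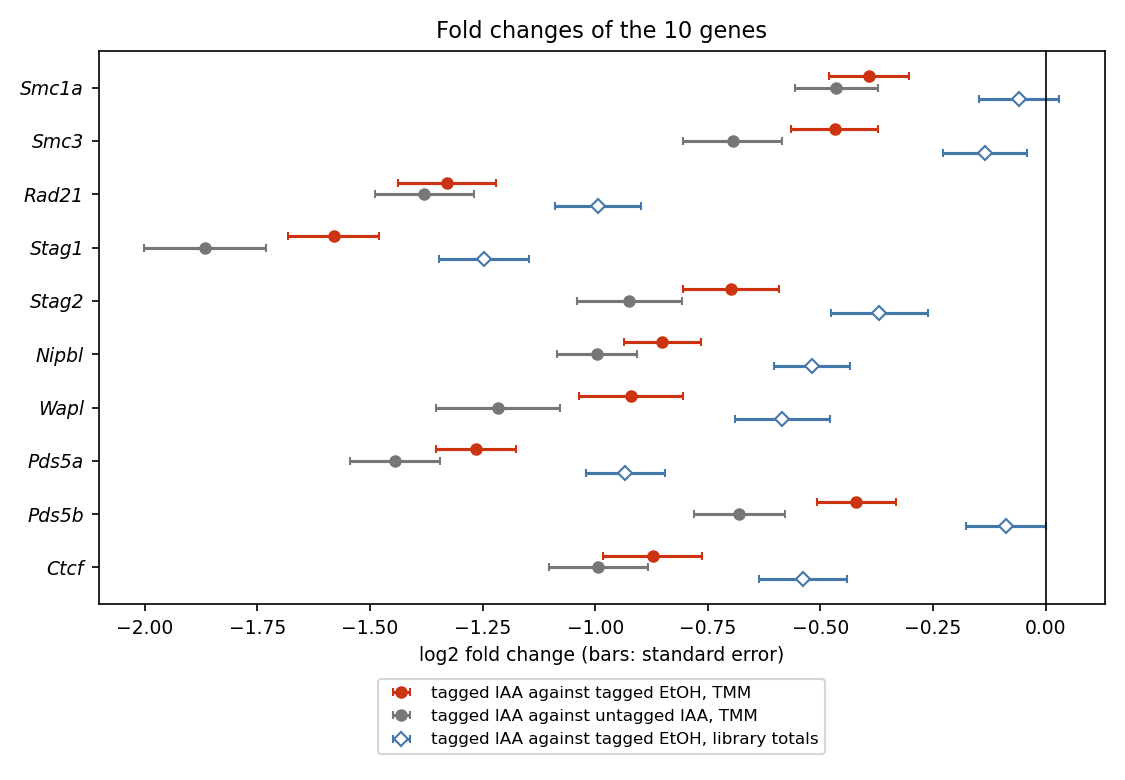
Log2 fold changes of the 10 genes with their standard errors, for tagged IAA against tagged EtOH with TMM factors (red), against the untagged line under IAA (grey) and against EtOH with library totals (open blue). Stag1 lies farthest from 0 in each series (-1.58, -1.87 and -1.25), and Smc1a, Pds5b and Smc3 lie at -0.06, -0.09 and -0.13 with library totals.

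Under the same IAA, tagged cells were also compared with the untagged line, where line and tag cannot be told apart from SPT16 loss. Without an untagged EtOH library, the effect of IAA alone was not tested. All 10 were called lower in the tagged lines (10 of 10, against 27.8% of 17439 genes). The values ran from -0.46 ± 0.09 for Smc1a (edgeR adjusted p = 0.000603) through -0.99 ± 0.11 for Ctcf, -0.995 ± 0.0892 for Nipbl and -1.38 ± 0.11 for Rad21 to -1.87 ± 0.14 for Stag1. Smc3 stood at -0.69 ± 0.11, Pds5b at -0.68 ± 0.10, Stag2 at -0.92 ± 0.12, Wapl at -1.22 ± 0.14 and Pds5a at -1.44 ± 0.10. With library totals Smc1a was no longer called (-0.17, edgeR adjusted p = 0.143). Both this comparison and the one with EtOH use the same IAA libraries, so they are not separate evidence.

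Tagged cells under EtOH were set against the untagged line to see what differed before IAA was given to them. Supt16 transcripts were lower in the tagged EtOH libraries (364 to 416 CPM) than in the untagged line (538 to 577 CPM). SPT16 protein was not measured, so whether it was already reduced under EtOH was not tested. None of the 10 was called (3.57% of all genes were, in either direction; 0 of 10 with DESeq2). Each was nonetheless below the untagged line, from -0.02 ± 0.09 for Rad21 to -0.31 ± 0.12 for Wapl. Smc3, Stag1, Wapl and Pds5b had an unadjusted edgeR p under 0.05, as did 22.3% of all genes. That count of 4 went to 0 without untagged replicate 1, to 1 without 10E EtOH replicate 1, to 2 without 11D EtOH replicate 1 and to 7 with library totals. Leaving out 10E EtOH replicate 2 brought 1 call, Wapl at -0.44 (edgeR adjusted p = 0.0401).

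The fall was also tested within each tagged line. In 10E, where IAA has 1 library that was assumed to vary like the other groups, all 10 were called lower (18.3% of all genes were), and in 11D all 10 as well (23.1% of all genes). Stag1 stood at -1.4997 ± 0.16 in 10E and -1.63 ± 0.13 in 11D on the log2 scale, and Nipbl at -0.85 ± 0.14 and -0.85 ± 0.11. The gap between the lines was widest for Rad21, at -1.54 ± 0.17 in 10E and -1.20 ± 0.13 in 11D, and for Ctcf, at -1.07 ± 0.17 and -0.75 ± 0.13. The test of that gap called none of the 10 (0.0% of all genes; 0 of 10 at an unadjusted p under 0.05, against 4.87% of all genes; 0 of 10 with DESeq2). Its largest values were -0.34 ± 0.20 for Rad21, -0.32 ± 0.21 for Ctcf and -0.28 ± 0.21 for Stag2. Within single lines the calls of Smc1a, Smc3 and Pds5b ended under several settings. In 10E, DESeq2 gave adjusted p = 0.106 for Smc1a, 0.0785 for Smc3 and 0.0963 for Pds5b. Without 10E EtOH replicate 2, which leaves 1 library against 1 with a spread taken from 11D, edgeR gave adjusted p = 0.147, 0.184 and 0.115. In 11D the Stag2 call ended with library totals (-0.29, edgeR adjusted p = 0.0947) and without 11D IAA replicate 2 (-0.49, edgeR adjusted p = 0.0552).

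**Figure D3:**
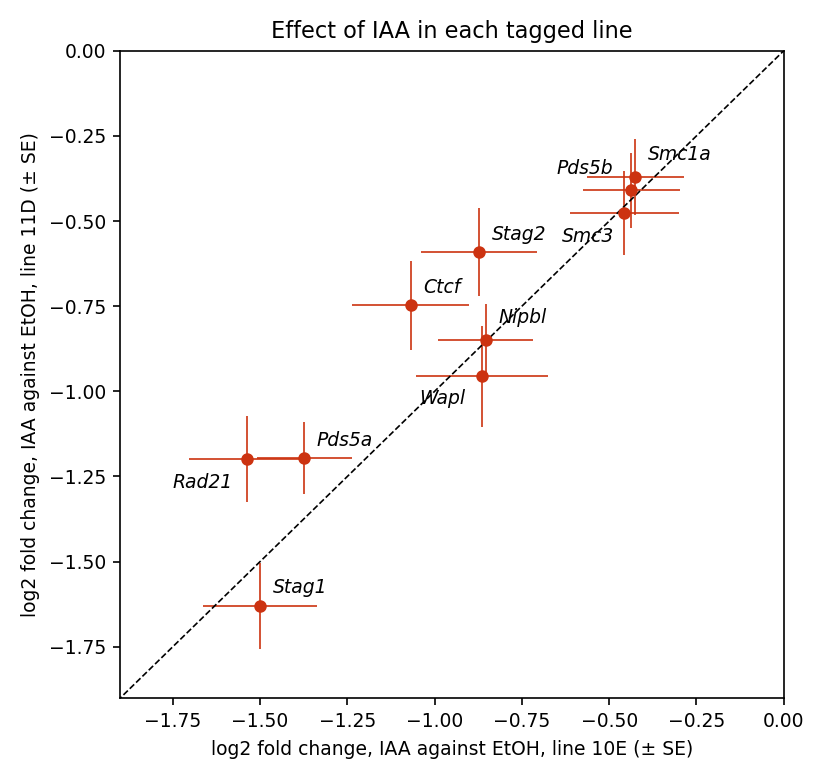
Log2 fold change of IAA against EtOH in line 11D (vertical) plotted against line 10E (horizontal) for the 10 genes, bars being standard errors and the dashed line equality. Smc1a, Smc3 and Pds5b lie nearest 0 in both lines, and Rad21 (-1.54 and -1.20) and Ctcf (-1.07 and -0.75) lie above the dashed line.

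Before IAA, 0 of the 10 genes were called between 10E and 11D under EtOH (3.23% of all genes were; 0 of 10 with DESeq2). Pds5a alone had an unadjusted edgeR p under 0.05 (18.2% of all genes did), at -0.23 ± 0.10 in 10E against 11D. Leaving out the 2 EtOH libraries rich in CT010467.1 gave a call for Wapl (-0.57, edgeR adjusted p = 0.0278), but this sets 1 library against 1, with a spread that comes from the 2 IAA libraries of 11D.

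Ratios of 2 genes within a library do not depend on the scaling, and 6 were compared between EtOH and IAA. With 4 libraries against 3, a two-sided exact permutation test cannot go below p = 0.0571. The test took no account of line, and the lines were unevenly represented under IAA. Log2 Stag1:Stag2 was 0.75 ± 0.11 (SD, n = 4) under EtOH, -0.14 ± 0.21 (n = 3) under IAA and 0.85 ± 0.15 (n = 3) in the untagged line. Every EtOH and untagged library read more Stag1 than Stag2 counts, and under IAA both 11D libraries read fewer (-0.31 and -0.21) while 10E stood at 0.09. Log2 Pds5a:Pds5b was 1.55 ± 0.06 under EtOH, 0.72 ± 0.11 under IAA and 1.46 ± 0.01 in the untagged line, with no overlap. Log2 Rad21:Smc3 was 0.63 ± 0.07 under EtOH and -0.21 ± 0.23 under IAA, and the untagged line stood at 0.41 ± 0.10. Log2 Ctcf:Rad21 had the opposite sign of difference, at -1.02 ± 0.14 under EtOH and -0.60 ± 0.20 under IAA, with -0.95 ± 0.08 in the untagged line. For these 4 ratios the IAA libraries overlapped neither other group, and each reached the smallest p the design allows (exact permutation p = 0.0571, 0.0857 adjusted over the 6). Smc1a:Smc3, the 2 arms, differed by 0.06 (exact permutation p = 0.571), with overlapping libraries. Wapl:Nipbl, release against loading, differed by -0.07 (exact permutation p = 0.629) and overlapped with EtOH, but its IAA libraries (0.16 to 0.34) lay below the untagged ones (0.42 to 0.67).

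**Figure D4:**
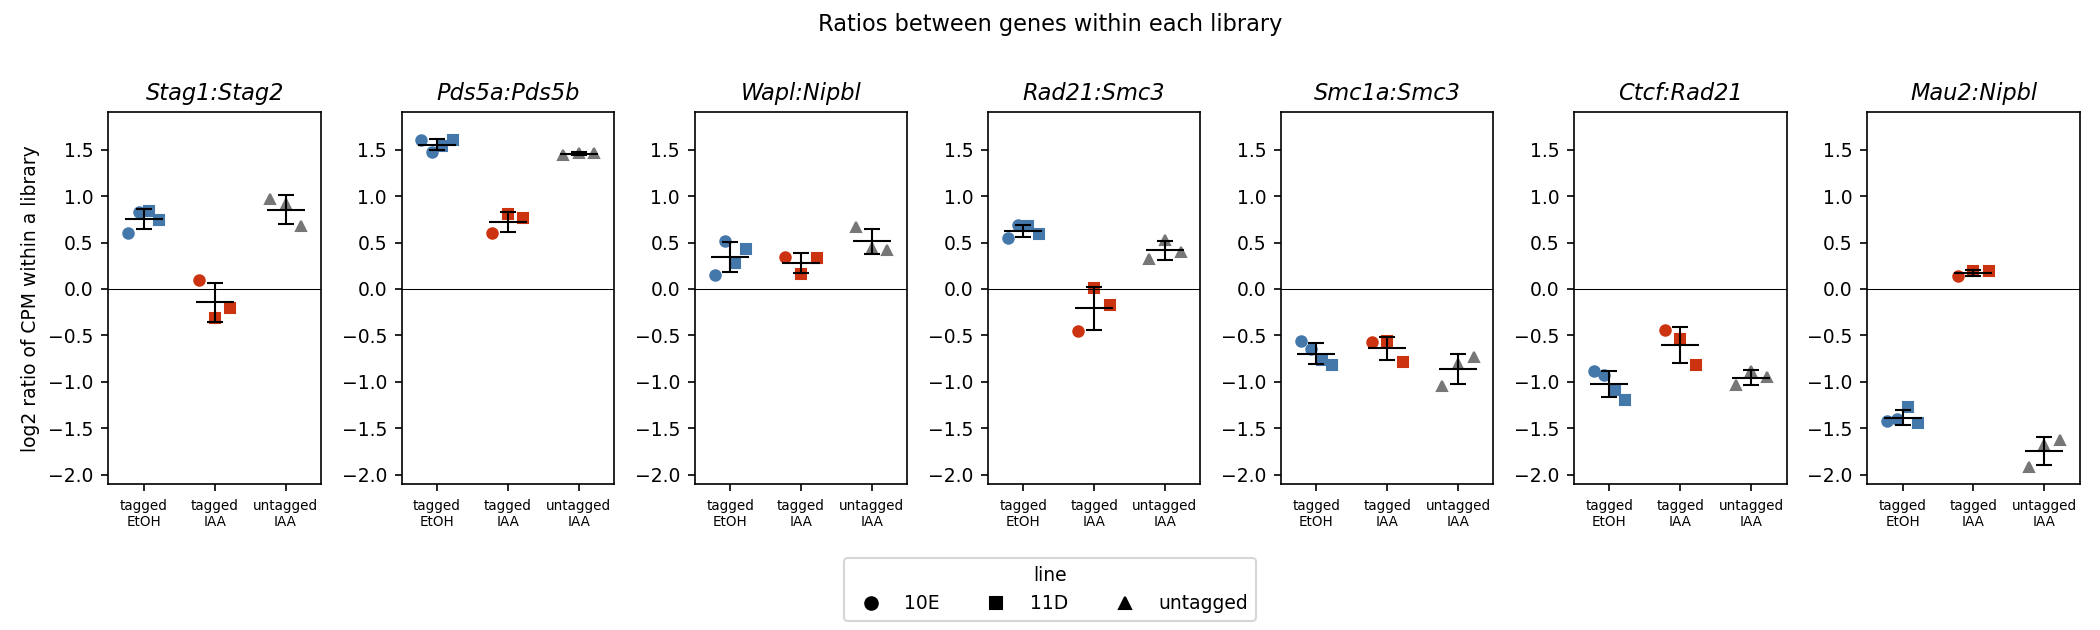
Log2 ratio of CPM between 2 genes within each library, on 1 shared axis; points are libraries (shape: line), the wide bar is the mean and the whiskers 1 SD (n = 4, 3 and 3). Under IAA, Stag1:Stag2, Pds5a:Pds5b and Rad21:Smc3 lie lower and Ctcf:Rad21 and Mau2:Nipbl lie higher without overlap, and Wapl:Nipbl and Smc1a:Smc3 overlap between EtOH and IAA.

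The same pairs can be read per length. On CPM per kb of exon, Stag1 made up 54.2% ± 1.94 of Stag1 and Stag2 together under EtOH, 38.9% ± 3.51 under IAA and 55.9% ± 2.64 in the untagged line. Pds5a made up 59.9% ± 1.03, 45.7% ± 1.87 and 58.3% ± 0.23 of its pair. Using the longest transcript in place of all exons, chosen after seeing the data, gave 62.7% and 47.5% for Stag1 under EtOH and IAA and 70.9% and 57.8% for Pds5a. The IAA libraries lay below all others on either length, as follows from the ratios above, which a length only multiplies by a constant. Whether Pds5a or Pds5b led under IAA depended on the length used.

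Levels of different genes were set in order per kb of exon. Under EtOH, Rad21 led at 87.1 ± 10.7 CPM per kb, followed by Wapl at 59.6 ± 9.85, Smc3 at 43.0 ± 4.33, Ctcf at 37.2 ± 3.80 and Nipbl at 32.7 ± 2.83. Smc1a stood at 25.4 ± 1.31, Pds5a at 21.0 ± 2.11, Stag1 at 16.9 ± 2.08, Stag2 at 14.3 ± 1.47 and Pds5b at 14.1 ± 1.26 CPM per kb. Libraries of neighbours in that order overlapped for 6 of the 9 pairs, the exceptions being Rad21 over Wapl, Nipbl over Smc1a and Smc1a over Pds5a. Under IAA the top 3 were Rad21 at 36.3 ± 6.76, Wapl at 32.2 ± 2.57 and Smc3 at 31.7 ± 3.25 CPM per kb, and Rad21 overlapped with Wapl. Stag1 came last at 5.80 ± 0.18 CPM per kb, below Pds5a at 9.13 ± 1.43 with no overlap. In the untagged line Rad21 led at 88.2 ± 3.82 CPM per kb, overlapping with Wapl, and the last 2 were Pds5b at 16.9 ± 1.78 and Stag2 at 16.5 ± 1.98 CPM per kb. Pds5a and Stag1 have long annotated exons, and by the longest transcript Pds5a stood at 45.5 and Stag1 at 32.2 CPM per kb under EtOH.

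The genes differ in size, from 29.5 kb for Rad21 (chr15:51962240-51991747, - strand, GRCm38) to 361.6 kb for Stag1 (chr9:100597798-100959375, + strand). Among 9163 protein-coding genes of at least 10 CPM, the median log2 fold change was -0.17 for spans under 10 kb, -0.08 for 10 to 30 kb, -0.17 for 30 to 100 kb, -0.49 for 100 to 300 kb and -0.95 beyond 300 kb. The share called lower was 41.9% over all these genes, 60.7% at 100 to 300 kb and 74.1% beyond 300 kb. Each of the 10 except Pds5b lay below the median of its span class. Rad21 at -1.33 stood against -0.08, Pds5a at -1.26 against -0.17 and Stag1 at -1.58 against -0.95, while Pds5b at -0.42 stood against -0.49. Across the 10 genes, which share the same libraries, span and log2 fold change gave r = -0.29 and rho = -0.14. EtOH CPM and log2 fold change gave r = -0.54 and rho = -0.61, but the same EtOH libraries enter both values. That alone can give a negative correlation, so no relation of level to fall is read from it. The part of gene span in these falls was not tested.

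**Figure D5:**
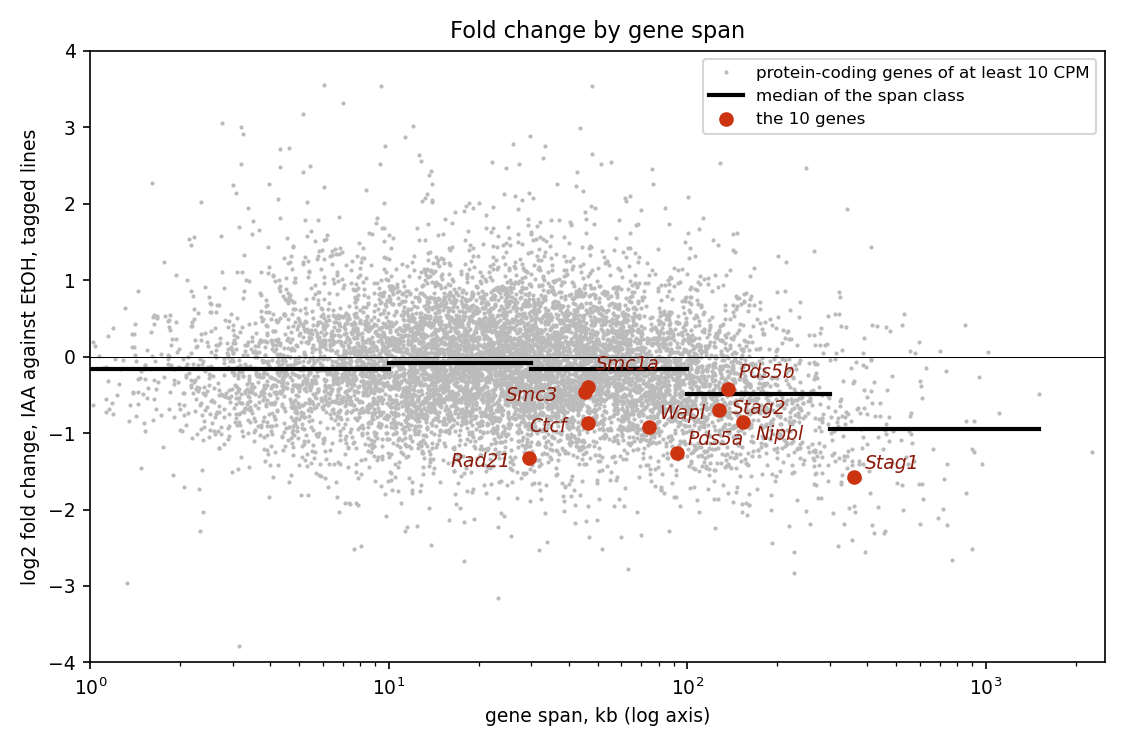
Log2 fold change of IAA against EtOH (vertical) by gene span in kb (horizontal, log axis) for protein-coding genes of at least 10 CPM (grey), with the median of each span class (black bars) and the 10 genes (red); 5 genes lie outside the vertical range. The medians are -0.17 under 10 kb, -0.08 at 10 to 30 kb and -0.95 beyond 300 kb, and Rad21 and Stag1 lie below the bars at either end of the 10 genes' span.

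Genes listed as other regulators of cohesin, some of them linked to it less directly, did not all go down. Of 18 tested, 4 rose, 6 fell and 8 did not pass, where 29.3% of all genes rose and 28.1% fell. Mau2, the partner of NIPBL in the loader, rose from 118 ± 12.4 CPM under EtOH to 198 ± 17.99 CPM under IAA and stood at 103 ± 7.97 CPM in the untagged line. It read 177 CPM in 10E and 207 and 210.0 CPM in 11D under IAA, against 104 to 131 CPM in the EtOH libraries, so the groups did not overlap. Its log2 fold change was 0.70 ± 0.08 against EtOH (edgeR adjusted p = 3.67e-06) and 0.90 ± 0.09 against the untagged line (edgeR adjusted p = 1.29e-06). The log2 ratio of Mau2 to Nipbl, chosen after its values were seen and so not tested, was -1.38 ± 0.08 under EtOH, 0.17 ± 0.03 under IAA and -1.74 ± 0.15 in the untagged line. Esco1, an acetyltransferase of SMC3, rose from 43.2 to 72.0 CPM (0.68 ± 0.12 on the log2 scale), and its untagged libraries, at 49.0 to 65.3 CPM, overlapped with the EtOH libraries (0.37 ± 0.14 against the untagged line, edgeR adjusted p = 0.0336).

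The other 2 that rose, named after their values were seen, were Esco2, the second SMC3 acetyltransferase (0.43 ± 0.10), and Cdca5, which encodes sororin, a protector of cohesin against WAPL (0.44 ± 0.10). Cdca5 was also higher than in the untagged line (0.49 ± 0.11, edgeR adjusted p = 0.00101). Esco2 was not called against it (0.07 ± 0.11, edgeR adjusted p = 0.629), the untagged line holding 199 CPM where IAA cells held 207 and EtOH cells 152. Aff4, a scaffold of the super elongation complex and among the genes linked less directly, fell by 0.76 ± 0.09 on the log2 scale. The shugoshin genes Sgo1 (-0.49 ± 0.10) and Sgo2a (-0.77 ± 0.11), also named after their values were seen, fell as well. Hdac8, the SMC3 deacetylase, missed the threshold at -0.47 ± 0.22 (edgeR adjusted p = 0.0747). With library totals the list split into 9 higher and 4 lower.

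Germline relatives of these genes gave 1 call. Of 5 meiotic cohesin and CTCF paralogs, 4 were tested and 1 fell, where 28.1% of all genes tested did. This was Smc1b, at 3.02 CPM under EtOH and 1.78 CPM under IAA (-0.90 ± 0.36, edgeR adjusted p = 0.0407). That call ended with DESeq2 (adjusted p = 0.153), with library totals, which called 1 other higher, and without 10E EtOH replicate 1 or any 1 library of 11D, among other settings. Stag3 stood at 43.9 and 38.7 CPM and Rec8 at 28.5 and 29.9 CPM under EtOH and IAA, and neither was called.

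Genes of the 2 other SMC complexes fell in part. Of all genes tested 28.1% fell, as did 41.9% of protein-coding genes of at least 10 CPM. The counts below were not tested against these shares. Of 8 condensin genes, which compact mitotic chromosomes, 5 fell and none rose, led by Ncapd2 (-1.04 ± 0.09) and Smc4 (-0.67 ± 0.09). The count fell to 3 without 10E IAA replicate 1, 10E EtOH replicate 2, 11D EtOH replicate 2 or either 11D IAA library, and with library totals to 3, with 1 higher. Of 7 genes of the SMC5/6 complex, a repair relative of cohesin, 4 fell, among them Nsmce1 (-0.75 ± 0.12) and Nsmce2 (-0.67 ± 0.14), and Eid3 rose (0.58 ± 0.23, edgeR adjusted p = 0.0400). Scaling by library totals gave 2 calls in each direction. Without 10E IAA replicate 1 the count fell to 2, and the Eid3 call was lost (edgeR adjusted p = 0.188). It was lost as well with DESeq2 (adjusted p = 0.0619) and without 10E EtOH replicate 2, 11D EtOH replicate 1 or 11D IAA replicate 2. Of 9 other factors tied to chromatin architecture, 7 fell and none rose, led by Maz (-0.97 ± 0.16) and Zfp143 (-0.79 ± 0.12). The count of 7 went to 4 without 10E IAA replicate 1 and to 2 with library totals. Sites shared by ZFP143 and CTCF have been reported, and were not examined here.

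Markers of the cell cycle moved in the same libraries, where 28.1% of all genes tested fell and 29.3% rose. Among protein-coding genes of at least 10 CPM, 41.9% fell. Of 20 S phase markers, 16 fell, among them Pola1 (-1.67 ± 0.09) and Mcm3 (-1.29 ± 0.10), and 2 rose, Slbp (0.43 ± 0.10) and Fen1 (0.31 ± 0.11). The call of Fen1 ended when 10E EtOH replicate 1 or any 1 of the 4 libraries of 11D was left out. Of 20 markers of G2 and M phase, 15 fell, among them Top2a (-1.35 ± 0.10) and Bub1b (-1.19 ± 0.09), and none rose. With library totals 7 fell and 2 rose. S phase markers summed to 5453 to 6269 CPM under EtOH and 3221 to 3425 CPM under IAA, and G2 and M phase markers to 4305 to 5065 CPM and 2977 to 3343 CPM. The part of these markers, and of the fall of the stem cell markers, in the falls of the 10 genes was not tested. Exons of Ncapd2, Zfp143, Slbp, Fen1, Top2a, Sgo2a, Neurod1, Eomes and Sox17 overlap those of other genes, and their values could hold reads of the partner.

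Genes whose levels ran most like those of Rad21, Nipbl and Ctcf over the 10 libraries were sought among 9199 genes of at least 10 CPM, as Pearson correlations of log2(CPM + 1). Closest to Rad21 were Polr2m (0.995), Son (0.995) and Jmjd1c (0.994). Closest to Nipbl were Zkscan8 (0.998), Eif3a (0.997) and Dpp8 (0.996), and closest to Ctcf were Arid5b (0.997), Mrps5 (0.991) and Mrpl11 (0.989). Among the 10 genes themselves, Nipbl ran closest to Pds5a (0.993) and least close to Pds5b (0.925). The correlations are over 10 libraries that share 1 split between IAA and the rest, and describe these libraries.

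The authors' deposited table also gave all 10 as lower at an adjusted p under 0.05, with a median log2 fold change of -0.80. Its values for Stag1 (-1.53), Rad21 (-1.25) and Pds5a (-1.22) stood 0.05 to 0.08 above the edgeR values, as did those of the other 7.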

How the data were processed

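The authors deposited 1 table of whole-number read counts per gene symbol, without normalization, for 10 libraries. The labels list 11 samples by clone number, and the codes 10E and 11D could not be matched to those numbers. Both clones have replicates 1 and 2 under IAA in the labels, but 10E has no IAA column for replicate 2. The columns headed TIR1 were taken as the untagged line because they alone have an IAA replicate numbered 3 and no EtOH library. STAR, deepTools and the mm10 build are named in the submitters' processing notes. Versions, the counting tool, the annotation and the strand setting were not given in the sources used here. The authors also deposited a table of IAA against EtOH whose base mean (a signal averaged over libraries), log2 fold change, Wald statistic (a score) and p-values are DESeq2 columns, per the file headers, used for description only. No column of per-sample values was left unused.

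Counts were fitted with edgeR 4.0.16 in R 4.3.3 (TMM, filterByExpr, glmQLFit and glmQLFTest) over all genes that passed the filter, with Benjamini-Hochberg adjustment and a call at a false discovery rate under 0.05. The 7 tagged libraries entered the fit of IAA against EtOH, which had a term for line. All 10 entered fits that involve the untagged line. Effects in single lines came from 1 coefficient per line and treatment. In 10E under IAA the lone library was assumed to vary like the other groups. DESeq2 1.42.0, other scalings and filters, the replicate block and each library left out were tried as alternatives. Ratios were tested with scipy 1.17.1. Gene lengths, spans and exon overlaps came from GENCODE vM21 (GRCm38), in which 53180 of 55291 symbols matched 1 gene. CPM per kb divides CPM by the union of exons. The edgeR script was tested on simulated data.

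Members, lists and tests were chosen with earlier results of these data known. Beside the 10 genes, up to 2 called genes per direction with the smallest false discovery rate were named from each gene list. A gene picked by that rule is not reported here. For Rad21, Nipbl and Ctcf the 3 genes with the highest correlation were named, pseudogenes, predicted genes and Riken or other unnamed entries being passed over. Depth limits precision through counting error, which is small at these counts.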

Additional observations from a re-analysis of the deposited data

Results flagged for a closer look

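In 16 sets of values from the same 4 EtOH libraries, a library far from the others was sought, and 2 sets held one. A chance rate of about 1 in 20 would hold for separate sets. These share their libraries and mix both lines, so the count is not judged against it. For Rad21 the lowest EtOH library, 10E EtOH replicate 1 at 301 CPM, lay apart from the other 3 (381 to 397 CPM) by 0.832 of the whole range. For Stag2 the highest, 11D EtOH replicate 2 at 136 CPM, lay apart from the other 3 (111 to 113 CPM) by 0.901 of the range. Both genes were called lower with IAA with that library left out.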

How the results depend on the processing

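All 10 genes remained called lower with IAA against EtOH under the fit of all libraries, no line term, DESeq2, upper quartile scaling, both filters on low counts, the replicate block, each of the 7 tagged libraries left out, both EtOH libraries rich in CT010467.1 left out and a false discovery rate under 0.01; library totals kept 7. Against the untagged line, library totals kept 9. Tagged EtOH against untagged gave 0 to 1 calls over the libraries left out in turn, the 1 being Wapl without 10E EtOH replicate 2. The lines before IAA gave 1 call, Wapl, without both EtOH libraries rich in CT010467.1, which leaves 1 library against 1. The replicate numbers shared by groups were not shown to pair libraries: same-numbered libraries correlated at -0.33 between 10E EtOH and 11D EtOH, 0.54 between 11D EtOH and 11D IAA and -0.30 between 10E EtOH and 11D IAA, over 9516 genes. The fit with the replicate number as a block called 10 of 10 lower, with a median of -0.85, and Smc3 in 10E missed the threshold with it (adjusted p = 0.0507). No result of the 10 genes changed sign once called, and the cause of the changes named here was not tested. Counts per gene were ample, so the number of libraries, 1 for 10E under IAA, limits the precision.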
